A study of Mus musculus with 54 samples.

Results

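The genes described here are 10 genes of apolipoproteins and lipoprotein assembly: Apoa1, Apoa2, Apoa4, Apoa5, Apob, Apoc1, Apoc2, Apoc3, Apoe and Mttp. They were chosen by name, with earlier results of these data known, and all 10 were found among the 20143 gene symbols of the deposited liver expression table. Male C57BL/6J mice, wild type in the labels, were fed a high-fat diet from the age of 8 weeks and given di-isononyl phthalate (DINP), a plasticizer, in gelatin pellets for 20 weeks. The control group (n = 14) received a pellet without DINP, and the exposed groups received 1.5 (n = 13), 15 (n = 13) or 150 (n = 14) mg per kg of body weight and day, written mg/kg from here on. All 4 groups ate the high-fat diet, so that no comparison with lean mice is possible. Each value comes from a homogenate of the medial lobe of 1 mouse, in which fewer cells of a type and less RNA per cell cannot be told apart.

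The liver packs triglycerides and cholesterol into very low density lipoproteins (VLDL) around 1 molecule of apolipoprotein B per particle, with lipid loaded by the microsomal triglyceride transfer protein encoded by Mttp. Apolipoproteins A-I and A-II are the main proteins of high density lipoproteins (HDL). The small, exchangeable apolipoproteins move between particles and govern their fate in plasma: C-II activates lipoprotein lipase, C-III and C-I restrain lipolysis and uptake, A-V promotes lipolysis, and E is the ligand for uptake by liver receptors. Apolipoprotein A-IV is made mostly by the intestine, and its gene is also transcribed in mouse liver, where it is known to rise with hepatic triglyceride load.

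Of the 10 genes, 7 lie in 2 clusters of neighbouring genes (GENCODE release M21, GRCm38). Apoa1 (chr9:46228580-46230466), Apoc3 (chr9:46232933-46235636), Apoa4 (chr9:46240696-46243459) and Apoa5 (chr9:46268633-46271919) stand in this order on chromosome 9, with Apoc3 on the minus strand and the others on the plus strand. Apoc3 and Apoa4 are separated by 5059 bases, and Apoa4 and Apoa5 by 25173 bases. Apoc2 (chr7:19671579-19677941), Apoc1 (chr7:19689481-19692660) and Apoe (chr7:19696109-19699188) lie on the minus strand of chromosome 7, with 3448 bases between Apoc1 and Apoe. Apoa2 (chr1:171225054-171226379), Apob (chr12:7977648-8016835) and Mttp (chr3:138089854-138144968) stand alone. Apoa4 and Apoa5 overlap antisense transcripts, Mttp overlaps genes on the opposite strand and Apoc2 overlaps a transcript on its own strand, and whether the authors counted reads by strand is not given in the sources used here.

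RefSeq promoters (GRCm38.p6; 250 bases before to 50 after the start of a gene) were at hand for 8 of the 10 genes, not for Apoc1 and Apoc3. They were searched on both strands for AGGTCA, the core hexamer of nuclear receptor sites, which 16.0% of 27025 promoters hold; for CAAAGTNCA, an element of the type that the liver factor HNF4 alpha binds, which 1.41% hold; and for the TATA box TATAAA, which 14.2% hold. The upstream stretches of 3 genes are shown because the results turn on them: Apoa4 and Apoc2, which varied together among mice although they lie on different chromosomes, and Apoe, the member with the smallest p-value at 15 mg/kg. Each is read 5′ to 3′ on the strand of the gene and ends at the last base before the gene in GENCODE, with matches in capitals.
Apoa4, chr9:46240594-46240695, plus strand: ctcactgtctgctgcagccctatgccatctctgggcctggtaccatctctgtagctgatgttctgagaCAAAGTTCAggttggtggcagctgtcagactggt
Apoc2, chr7:19677942-19678082, minus strand: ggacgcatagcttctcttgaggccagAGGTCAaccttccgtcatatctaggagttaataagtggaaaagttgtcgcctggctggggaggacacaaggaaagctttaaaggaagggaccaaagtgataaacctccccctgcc
Apoe, chr7:19699189-19699438, minus strand: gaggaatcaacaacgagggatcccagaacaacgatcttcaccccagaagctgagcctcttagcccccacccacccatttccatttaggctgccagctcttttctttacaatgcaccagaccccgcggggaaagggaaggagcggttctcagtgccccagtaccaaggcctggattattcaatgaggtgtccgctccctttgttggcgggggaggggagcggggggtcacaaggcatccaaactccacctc
Apoa4 was the only one of the 8 with a CAAAGTNCA match, 182 to 174 bases before its RefSeq start. This start lies within the gene as GENCODE draws it, so that the match is nearer to the end of the stretch shown than to the RefSeq start. Apoc2 was the only one with AGGTCA, 115 to 110 bases before its start and again after it, and TATAAA was found in Apoa2, Apoa5 and Apob. No match was found in the window of Apoe, which says only that these letters are not there.

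The table gives 1 value per gene and mouse: TPM, the share of a transcript among all transcripts of a library after division by transcript length, which its values show to be rounded and scaled between samples. The number of reads behind a value is unknown, and because the libraries were read from 3′ ends while TPM divides by transcript length, levels of different genes are compared here only by order. The 10 genes made up 8.57% ± 0.599 (SD, n = 14) of the summed values in control mice, 8.86% ± 0.817 (n = 13) at 1.5, 8.99% ± 1.16 (n = 13) at 15 and 7.97% ± 0.552 (n = 14) at 150 mg/kg. By median TPM in control mice, Apoa2 (25370) and Apoe (22780) stood first, ranking 5 and 6 in the whole table, followed by Apoc1 (15970), Apoa1 (8706), Apoc3 (7071), Apoc2 (1178), Apoa5 (347.6), Apoa4 (323.6), Apob (96.68) and Mttp (23.46). Neighbours in this order were not cleanly separated for 3 pairs (Apoa2 exceeded Apoe in 8 of 14 control mice, Apoa1 exceeded Apoc3 in 10 and Apoa5 exceeded Apoa4 in 9), and in a 4th pair 1 control mouse broke the order (Apoe exceeded Apoc1 in 13 of 14). Apob stands low on this scale partly by construction, since its principal transcript has 13934 bases.

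Each dose was compared with control by limma on log2(value + 1) over 11431 rows (those whose mean was 1 or more), with all 4 groups in 1 fit. All 10 members passed this filter. A gene is said to rise or fall at a Benjamini-Hochberg adjusted p under 0.05 over all tested rows, and is called a differentially expressed gene (DEG) if its log2 fold change (log2FC) is also beyond 0.5. At 1.5 mg/kg none of the 10 members passed, against 1.2% of all tested rows, and 1 had an unadjusted p under 0.05 (Apoa1, log2FC 0.28). At 15 mg/kg 4 of 10 passed, against 14.2% of all rows: Apoa2, Apoa5 and Apoc1 rose and Apoe fell. At 150 mg/kg 2 of 10 passed, against 2.17% of all rows, and both, Apoa4 and Apoc3, fell (0.682% of all rows fell). Apoa4 at 150 mg/kg was the only DEG among the members: 0 of 10 were DEGs at 1.5 (0.367% of all rows), 0 of 10 at 15 (3.72%) and 1 of 10 at 150 mg/kg (0.84%). The median log2FC of the 10 members was 0.03, 0.11 and -0.05 at the 3 doses, beside 0.003, -0.001 and -0.008 for all tested rows. The sign of the members' median depended on the scaling: it was -0.084, -0.088 and -0.078 with quantile normalization and 0.029, 0.055 and -0.14 with all samples scaled to the same total. The comparisons with control share the 14 control mice.

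**Figure D1:**
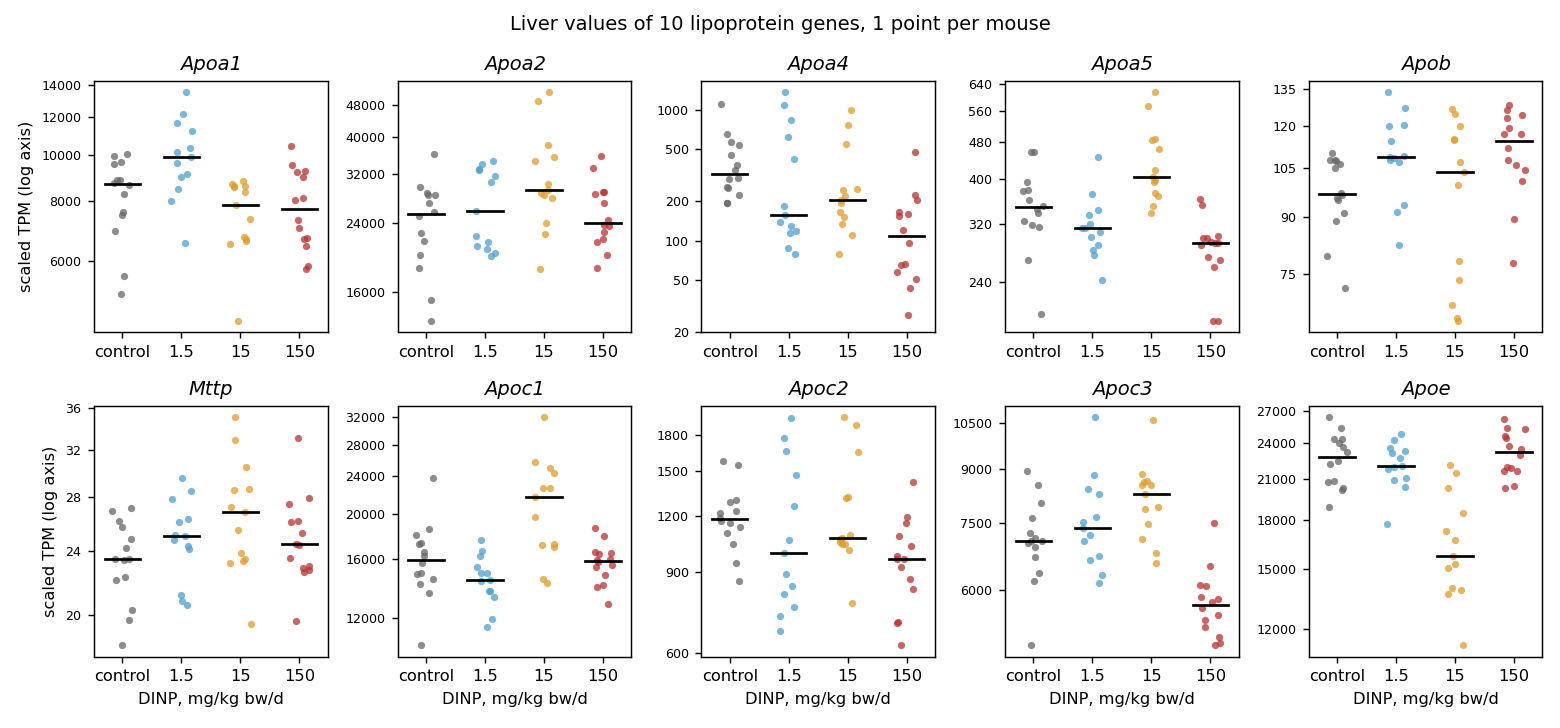
Scaled TPM (log axis, a different range in each panel) of the 10 genes in the control group and at 1.5, 15 and 150 mg/kg of DINP, with 1 point per mouse and the group median as a bar. In Apoa4, 11 of 14 mice at 150 mg/kg lie below every control mouse, and in Apoe 10 of 13 mice at 15 mg/kg do.

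Apoa4, which the paper names from these same data among the genes most lowered at 150 mg/kg, was set against the other members. It ranged from 192.6 to 1114 in control mice, with a median of 323.6. At 150 mg/kg it ranged from 27.18 to 473, with a median of 108.6. Here 11 of 14 mice lay below every control mouse and 13 of 14 below the control median, so that the groups overlapped by 3 exposed mice. The log2FC of -1.79 had a 95% interval from -2.60 to -0.98, which did not reach the interval of any other member at this dose: their log2FC ran from -0.33 (Apoc2, interval -0.62 to -0.05) to 0.19 (Apob, interval 0.0006 to 0.37). The library with the lowest summed values of its group also held the highest Apoa4 value in the control, 1.5 and 15 mg/kg groups (1114, 1366 and 989.9). Without these 3 libraries Apoa4 had a log2FC of -1.67 at 150 mg/kg (limma, adjusted p = 0.00662).

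At the lower doses Apoa4 spread more widely than in control mice. At 1.5 mg/kg it ran from 78.88 to 1366, with a median of 157.7, and 8 of 13 mice lay below every control mouse while 1 lay above all of them. The other 5 mice began at 424.3, above the 184.8 of the highest of the 8. At 15 mg/kg it ran from 79.6 to 989.9, with a median of 205.7 and 5 of 13 mice below every control mouse. Neither dose passed the test (log2FC -0.52, SE 0.413, adjusted p = 0.663 at 1.5; -0.62, SE 0.413, adjusted p = 0.346 at 15 mg/kg), and the intervals, -1.34 to 0.31 and -1.44 to 0.21, include both no difference and a fall of more than 1 on the log2 scale. Tested directly, Apoa4 was lower at 150 than at 15 mg/kg (log2FC -1.18, SE 0.413, adjusted p = 0.0353), although this call held in only 18 of 27 fits that left out 1 mouse. The difference between 150 and 1.5 mg/kg was -1.28 (SE 0.413, adjusted p = 0.0605), and that between 15 and 1.5 mg/kg was -0.10 (SE 0.420, adjusted p = 0.901).

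**Figure D2:**
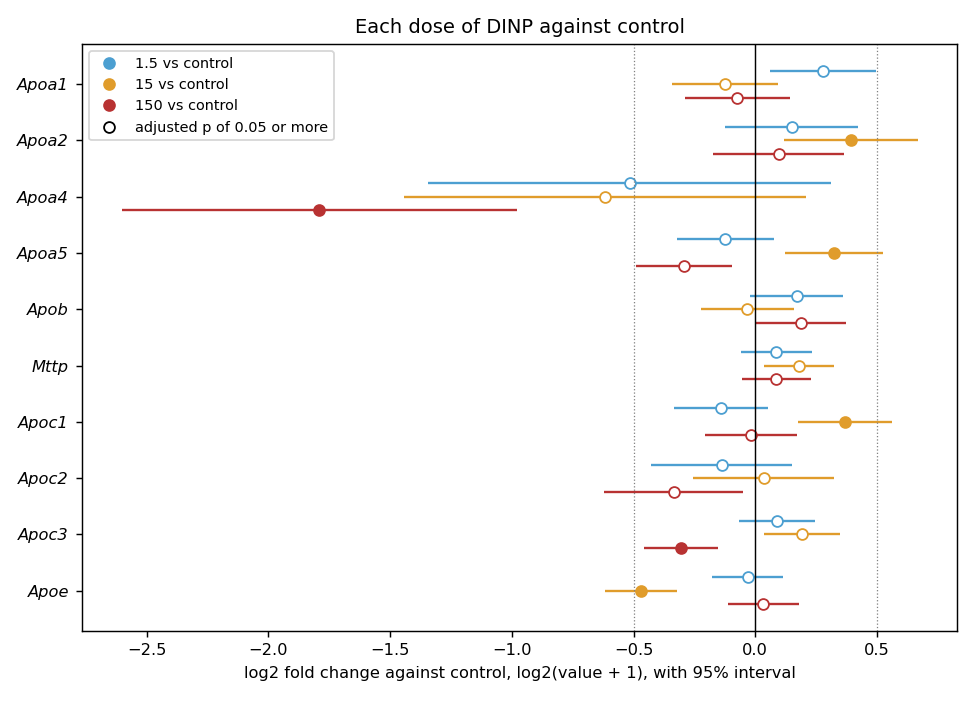
log2FC of each member against control (horizontal axis, on log2(value + 1)) at the 3 doses, with 95% intervals from the limma fit. Filled points have an adjusted p under 0.05, open points do not, and dotted lines mark a log2FC of 0.5 in either direction. Apoa4 at 150 mg/kg (-1.79) is the only filled point beyond a dotted line.

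Apob and Mttp, which form the core of VLDL assembly, passed the test at no dose. Apob had medians of 96.68 in control mice and 108.9, 103.8 and 114.4 at 1.5, 15 and 150 mg/kg. At 150 mg/kg 8 of 14 mice lay above every control mouse, yet the log2FC of 0.19 did not pass (SE 0.0933, adjusted p = 0.353). At 15 mg/kg the mice spread to both sides, 3 below and 5 above all controls. The low values came from a run of consecutive numbers. Replicates 5 to 9 had 78.25, 67.96, 64.69, 65.24 and 73.52, and every other mouse of the group had 99.46 or more. What the replicate numbers stand for is not given, and the part of this run in the calls at 15 mg/kg was not tested. Mttp had medians of 23.46, 25.06, 26.83 and 24.45 in the 4 groups. Its highest log2FC, 0.18 at 15 mg/kg (SE 0.0720, adjusted p = 0.0867), has an interval from 0.04 to 0.32, so that a change of Mttp beyond 0.5 is outside the intervals at all 3 doses.

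The HDL genes gave 1 change. Apoa2 ranged from 13550 to 36190 in control mice, with a median of 25370, and from 18380 to 51820 at 15 mg/kg, with a median of 29140. It rose at this dose (log2FC 0.39, SE 0.137, adjusted p = 0.0435) with 3 of 13 mice above every control mouse, but the call held in only 16 of 27 fits that left out 1 mouse. The 3 mice were replicates 5, 6 and 8, all within the run with low Apob. Apoa1 had medians of 8706 in control mice and 9926, 7877 and 7696 at the 3 doses and passed against control at none. Between doses it was lower at 15 (log2FC -0.40, SE 0.111, adjusted p = 0.00612) and at 150 mg/kg (-0.35, SE 0.109, adjusted p = 0.0473) than at 1.5 mg/kg, where 6 of 13 mice lay above every control mouse.

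Apoe and Apoc1, neighbours on chromosome 7, moved in opposite directions at 15 mg/kg. Apoe ranged from 18880 to 26390 in control mice, with a median of 22780. At 15 mg/kg it ranged from 11310 to 22100, with a median of 15770: all 13 mice lay below the control median and 10 below every control mouse. The lowest Apoe values came from replicates 5 to 8 (13980, 13900, 11310 and 13680), all within the run with low Apob. The log2FC was -0.47 (SE 0.0733, interval -0.62 to -0.32, adjusted p = 1.36e-05), rank 35 of 11431 rows by p. At 1.5 and 150 mg/kg the medians were 22040 and 23180 and the groups overlapped the control group almost wholly. Tested between doses, Apoe was lower at 15 than at 1.5 mg/kg (log2FC -0.44, SE 0.0747, adjusted p = 3.2e-05) and higher at 150 than at 15 mg/kg (0.50, SE 0.0733, adjusted p = 1.66e-06).

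Apoc1 ranged from 10500 to 23780 in control mice, with a median of 15970, and from 14220 to 32040 at 15 mg/kg, with a median of 21630. It rose at this dose (log2FC 0.37, SE 0.0961, adjusted p = 0.00607), with 11 of 13 mice above the control median and 4 above every control mouse, but missed the threshold with no filter on low values (adjusted p = 0.0546) and in a fit of these 2 groups alone (adjusted p = 0.0519). At 1.5 and 150 mg/kg its medians were 14460 and 15830. Apoc1 was higher at 15 than at 1.5 mg/kg (log2FC 0.51, SE 0.0978, adjusted p = 0.000146) and lower at 150 than at 15 mg/kg (-0.39, SE 0.0961, adjusted p = 0.0026). Apoc4, which lies between Apoc2 and Apoc1 in the cluster, had log2FC of 0.04, -0.07 and -0.01 at the 3 doses and passed at none.

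In the chromosome 9 cluster, Apoc3 fell with Apoa4 at 150 mg/kg, by a smaller amount. Apoc3 ranged from 4986 to 8949 in control mice, with a median of 7071, and from 4979 to 7500 at 150 mg/kg, with a median of 5698. The ranges overlapped, but 13 of 14 exposed mice lay below the control median (log2FC -0.30, SE 0.0761, adjusted p = 0.0179). At 1.5 and 15 mg/kg the medians were 7385 and 8284, and neither group passed against control. Apoc3 was lower at 150 than at 1.5 (log2FC -0.39, SE 0.0775, adjusted p = 0.00097) and than at 15 mg/kg (-0.50, SE 0.0775, adjusted p = 5.13e-06).

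Apoa5 ranged from 204.1 to 456.9 in control mice, with a median of 347.6, and from 336.8 to 615 at 15 mg/kg, with a median of 404.7. It rose at this dose (log2FC 0.32, SE 0.0996, adjusted p = 0.021), with 12 of 13 mice above the control median, but missed the threshold with quantile normalization (adjusted p = 0.0788), in a fit of these 2 groups alone (0.0569) and with array quality weights (0.0945). The Apoa5 values above every control mouse came from replicates 4, 5, 6, 8 and 9, of which all but replicate 4 belong to the run with low Apob. At 150 mg/kg its median was 290.8, with 12 of 14 mice below the control median, and the log2FC of -0.29 did not pass (SE 0.0977, adjusted p = 0.104). It passed there when all samples were scaled to the same total (log2FC -0.39, adjusted p = 0.00828), with quantile normalization, with array quality weights and without the 3 libraries named above. The difference between 150 and 15 mg/kg was -0.62 (SE 0.0996, interval -0.82 to -0.42, adjusted p = 1.03e-05).

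Apoc2, the lipase activator, had medians of 1178 in control mice and 992.3, 1070 and 964.6 at 1.5, 15 and 150 mg/kg. It passed against control at no dose, with a log2FC of -0.33 at 150 mg/kg (SE 0.142, adjusted p = 0.25) and 12 of 14 mice below the control median. At 1.5 mg/kg the 13 mice ran from 669.2 to 1968, with 5 below and 3 above every control mouse.

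**Figure D3:**
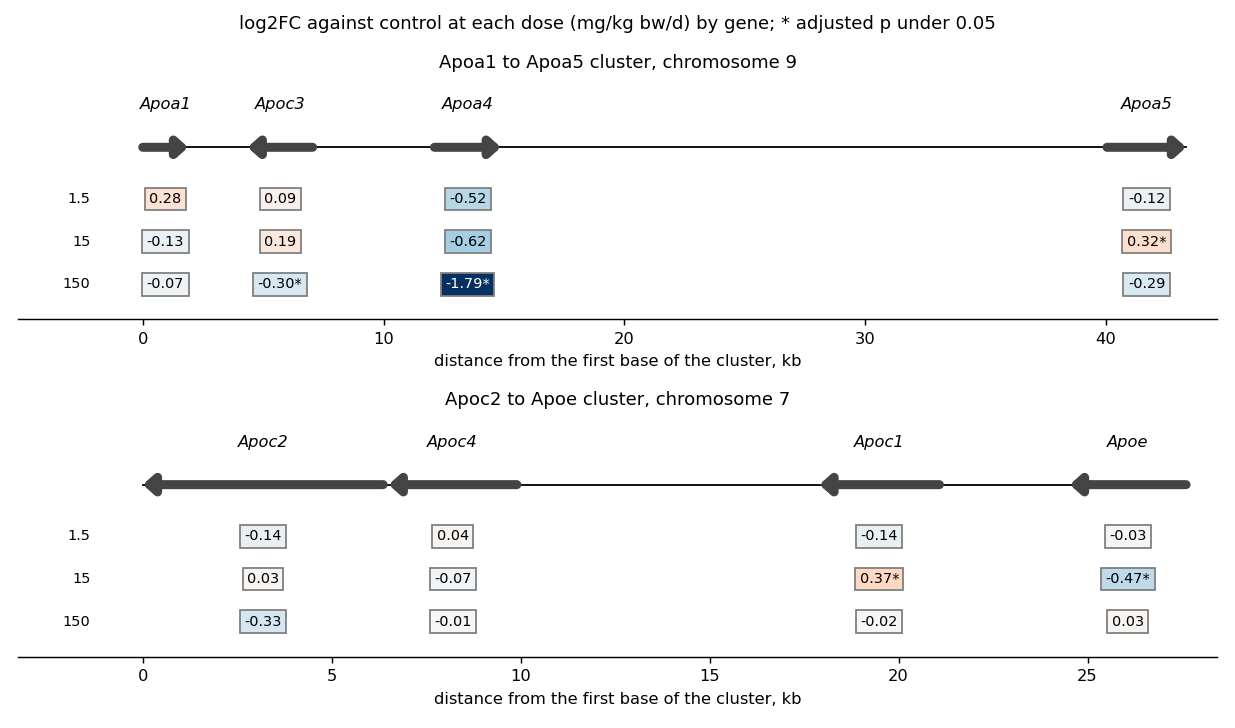
Positions of the genes in the 2 clusters (horizontal axis, kb from the first base of the cluster; arrows point along transcription) with the log2FC against control of each gene at 1.5, 15 and 150 mg/kg printed and coloured beneath (blue lower, red higher; asterisk, adjusted p under 0.05). At 150 mg/kg Apoa4 (-1.79) and Apoc3 (-0.30) fell, and at 15 mg/kg Apoc1 (0.37) and Apoe (-0.47) had opposite signs.

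The direct comparisons between doses gave a similar count of members at 15 against 1.5 mg/kg (4 of 10, against 21.4% of all rows) and at 150 against 15 mg/kg (5 of 10, against 20% of all rows), and 2 of 10 at 150 against 1.5 mg/kg (4.61%). The 5 members that differed between 150 and 15 mg/kg were Apoa4, Apoa5, Apoc1 and Apoc3, which were lower, and Apoe, which was higher. Of these Apoa4, Apoa5 and Apoe were DEGs (3 of 10, against 6.73% of all rows). Apoc1 was the only DEG between 15 and 1.5 mg/kg (7.15% of all rows), and no member was a DEG between 150 and 1.5 mg/kg (1.64%). The contrasts of 15 against 1.5 and of 150 against 15 mg/kg share the 15 mg/kg group, in which 14.2% of all rows already differed from control.

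Apoa4 also differed from the other members in its spread among mice of 1 group. Its SD within groups was 1.11 on the log2 scale, larger than that of 98.1% of all tested rows, while the other 9 members had SDs from 0.178 (Apoe) to 0.384 (Apoc2). Among the 965 rows whose mean was 100 or more, Apoa4 ranked 20. The highest value in a group exceeded the lowest 5.78-fold in control mice and 17.4-fold at 150 mg/kg for Apoa4, against 1.40-fold and 1.29-fold for Apoe.

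To see which members varied together among mice with the same exposure, the group means were subtracted and the 45 pairs of members were correlated over the 54 mice (2-sided permutation tests within groups, 100000 resamples, adjusted over the 45 pairs). For 9 pairs both Pearson's r and Spearman's rho had an adjusted p under 0.05, 7 positive and 2 negative. Apoa4 and Apoc2 had the highest value (r = 0.891, permutation p = 1e-05, adjusted p = 0.0003; rho = 0.878, permutation p = 1e-05, adjusted p = 0.000225), where the unadjusted p is the smallest that the resampling can give. It was 0.897 without the 2 mice farthest from the median of Apoa4, and 0.776, 0.922, 0.95 and 0.838 within the control, 1.5, 15 and 150 mg/kg groups. Apoa4 values within the 1.5 mg/kg group are split by the gap described above, so that the r of 0.922 rests in part on the distance between its 8 lower and 5 higher mice. The 15 mg/kg group is split too. Replicates 5, 6 and 7 had Apoa4 of 766.4, 544.8 and 989.9 with Apoc2 of 1975, 1653 and 1901. The other mice of that group had at most 249.6 and 1318, so that the r of 0.95 rests in part on those replicates.

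The other 6 positive pairs joined 4 genes, Apoa2, Apoa5, Apoc1 and Apoc3. Apoc1 and Apoc3 had r = 0.616 (p = 2e-05, adjusted p = 0.0003; rho = 0.647, adjusted p = 0.000225; r = 0.582 without the 2 farthest mice). Apoa2 and Apoc1 had r = 0.596 (p = 4e-05, adjusted p = 0.00045; rho = 0.533, adjusted p = 0.00105; r = 0.549 without them). Apoa5 and Apoc1 had r = 0.585 (p = 2e-05, adjusted p = 0.0003; rho = 0.532, adjusted p = 0.00169; r = 0.455 without them). The remaining pairs, Apoa2 with Apoc3, Apoa5 with Apoc3 and Apoa2 with Apoa5, had r of 0.499, 0.431 and 0.414 (adjusted p = 0.00198, 0.0134 and 0.0186), rho of 0.507, 0.43 and 0.393, and r of 0.488, 0.326 and 0.318 without the 2 farthest mice, and all 3 missed the threshold when samples were scaled to the same total. Within the 150 mg/kg group the r of Apoa2 with Apoc1 and with Apoc3 was -0.00907 and -0.0607. The r of Apoa5 with Apoc1 was 0.686 in control mice, 0.199 at 1.5, 0.888 at 15 and 0.165 at 150 mg/kg. For Apoa5 with Apoc3 it was 0.64, 0.135, 0.618 and 0.252 in the same order. For Apoa2 with Apoa5 it was 0.669, -0.246, 0.792 and 0.0581. Apoc1 with Apoc3 had 0.379 or more in each group. The part of the run with low Apob in the r at 15 mg/kg was not tested. The negative pairs were Apoa2 with Apob (r = -0.393, p = 0.00641, adjusted p = 0.0313; rho = -0.396, adjusted p = 0.0253; r = -0.392 without the 2 farthest mice) and Apoa4 with Apoc1 (r = -0.329, p = 0.0111, adjusted p = 0.0452; rho = -0.351, adjusted p = 0.0424; r = -0.252 without them), of which the second missed the threshold under total scaling. Within groups the r of Apoa4 with Apoc1 was -0.806 in control mice, -0.661 at 1.5, -0.0312 at 15 and -0.124 at 150 mg/kg. Under total scaling Pearson's r also passed the permutation test for pairs not named above. These were Apoa4 with Mttp (0.465, adjusted p = 0.009), Apob with Apoc3 (-0.409, adjusted p = 0.009) and Apob with Apoe (0.514, adjusted p = 0.0143). Without this scaling Apoa4 with Mttp had r = 0.219 (adjusted p = 0.253). Spearman's rho was not computed under it. Values of 1 mouse share its library and scaling.

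**Figure D4:**
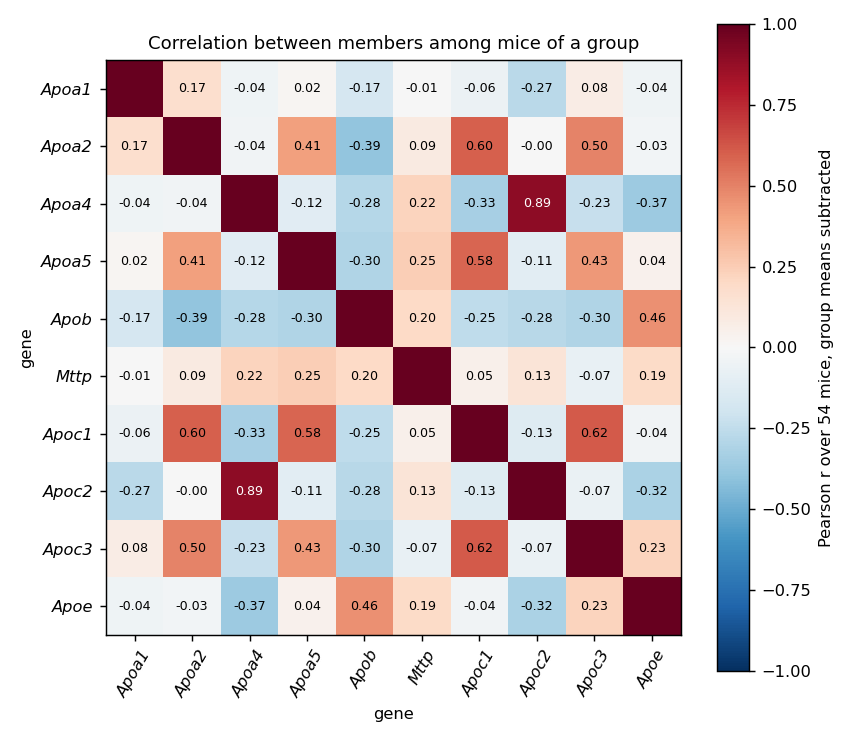
Pearson's r between members over 54 mice after subtraction of the group means, on a colour scale from -1 (blue) to 1 (red), with r printed in each cell. The cell of Apoa4 and Apoc2 (0.89) is the highest, and Apoa2, Apoa5, Apoc1 and Apoc3 hold the other high values.

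The genes whose pattern was most like that of Apoa4 were sought over 6922 rows with a mean of 5 or more, by Spearman's rho on the same centred values of the 54 mice, as a description. The highest were Cidec (0.884), a lipid droplet protein that promotes droplet fusion, Lgals1 (0.866), H2-Q1 (0.848), Anxa5 (0.847) and Cd36 (0.846), a fatty acid transporter. The lowest were Lifr (-0.841), Cyp1a2 (-0.840), Cps1 (-0.837), the first enzyme of the urea cycle, Hsd3b5 (-0.832) and Adh6-ps1 (-0.826). In a list of 10 genes for fat storage in steatotic liver, the 9 in this range had a median rho with Apoa4 of 0.733, beside -0.03 for all rows, Cidea (0.839), Plin2 (0.769) and Pparg (0.733) among them.

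None of the 5 genes most like Apoa4 passed the test at 150 mg/kg, and their signs were mixed. Cidec had medians of 5.789 in control mice and 8.076 at this dose (log2FC 0.16, adjusted p = 0.946), and Cd36 had medians of 31.45 and 41.72 (0.33, adjusted p = 0.655). The log2FC of Lgals1, H2-Q1 and Anxa5 was -0.20, -0.63 and -0.21 (adjusted p = 0.876, 0.364 and 0.781). Other listed genes that varied with Apoa4 among mice had mixed signs too, and none of those named next passed. Below control were Saa2 (rho 0.800, log2FC -0.99, adjusted p = 0.425), Saa1 (rho 0.779, -0.81, adjusted p = 0.415), Col3a1 (rho 0.775, -0.51, adjusted p = 0.502) and Fabp4 (rho 0.607, -0.68, adjusted p = 0.146). Above control were Cidea (rho 0.839, log2FC 1.44, adjusted p = 0.196), Plin2 (rho 0.769, 0.30, adjusted p = 0.377), Pltp (rho 0.753, 0.23, adjusted p = 0.77), Fabp2 (rho 0.634, 0.04, adjusted p = 0.936) and Mogat1 (rho 0.619, 0.95, adjusted p = 0.134). Of the fat-storage list 6 of 9 tested genes had a log2FC above 0, with a median of 0.30 beside -0.008 for all rows. G0s2, an inhibitor of triglyceride lipase, rose (log2FC 1.08, SE 0.29, adjusted p = 0.0299), and no gene of the list fell. The values of this list are RNA levels and do not measure stored fat. From liver sections, the paper reports less macrosteatosis at the highest dose than in control mice. It also reports fewer lipid droplets and, in a figure caption, a smaller mean lipid area at the lowest and highest doses. Liver triglycerides, in its words, tended to fall as the dose rose. Whether Apoa4 followed the stored fat of each mouse was not tested. The difference in Apoa4 was also fitted with log2(Cidec + 1) as a covariate. At equal Cidec, the log2FC of Apoa4 was -0.21, -0.37 and -1.89 at 1.5, 15 and 150 mg/kg. Cidec was taken because it ranked first of the 6922 rows by its correlation with Apoa4 in these same mice, which by itself makes the SE smaller, so that these values are a description and no p is given. The ratio of Apoa4 to Cidec + 1 had medians of 48.11, 56.81, 51.67 and 14.13 in the 4 groups, and 13 of 14 mice at 150 mg/kg lay below every control mouse. Cidec lay near the floor in many mice. Its lowest value was 0 in each of the 4 groups, and its medians at 1.5 and 15 mg/kg were 1.029 and 2.981. The covariate and the ratio therefore depend on the added 1 in such mice, and no other added value was tried for them.

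With log2(Apoc2 + 1) as the covariate instead, likewise chosen for its correlation with Apoa4, the log2FC of Apoa4 was -0.16, -0.70 and -0.93 at the 3 doses, the last a smaller value than the -1.79 without it. Apoa4 changed by 2.57 on the log2 scale for each 1 of Apoc2 in this fit (SE 0.182). The ratio of Apoa4 to Apoc2 had medians of 0.269 in control mice and 0.177, 0.189 and 0.109 at the 3 doses, with 12 of 14 mice at 150 mg/kg below every control mouse. Both covariates were measured in the same libraries.

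**Figure D5:**
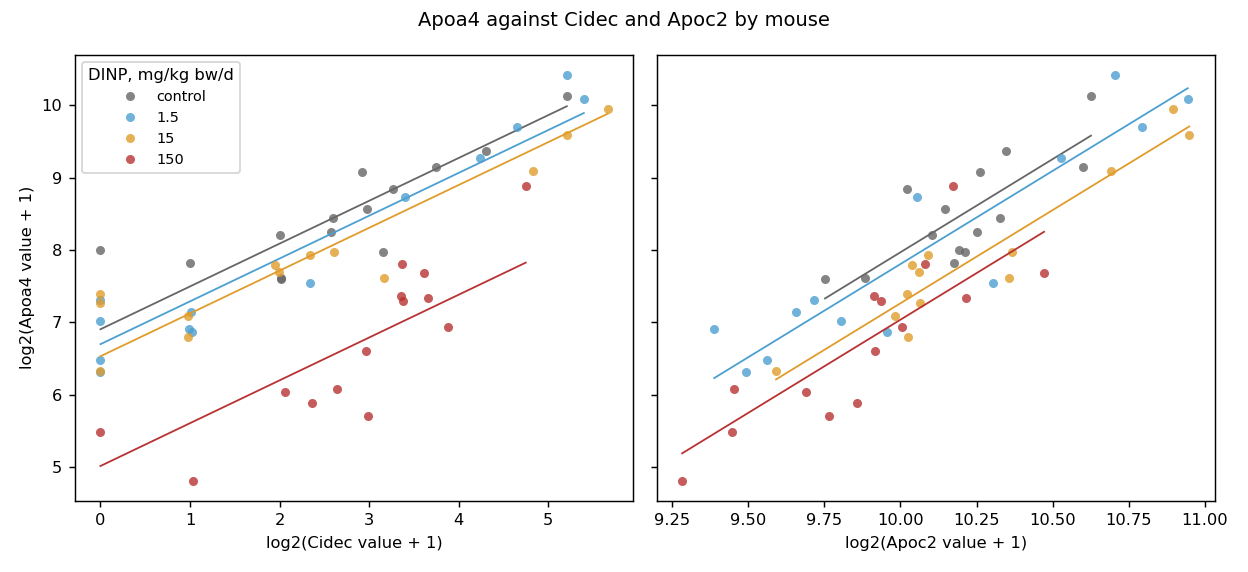
log2(Apoa4 + 1) against log2(Cidec + 1), left, and log2(Apoc2 + 1), right, with 1 point per mouse coloured by dose and lines of the common slope of the limma fits (0.591 and 2.57). In the left panel the 150 mg/kg mice lie below the others at equal Cidec, with a log2FC of -1.89 against control.

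The other genes of the pathway were taken from lists. Of 20 tested genes of VLDL assembly and secretion, 5 rose and 3 fell at 15 mg/kg (14.2% of all rows passed), 2 rose at 150 (2.17%) and none passed at 1.5 mg/kg (1.2%). The 3 with the largest log2FC at 15 mg/kg were Ces1d (0.63, adjusted p = 0.0118), a carboxylesterase that mobilizes triglyceride for VLDL, Sar1b (0.43, adjusted p = 0.0047), the GTPase of the vesicles that export lipoproteins from the endoplasmic reticulum, and Aadac (0.43, adjusted p = 0.00964), a deacetylase linked to VLDL secretion. The 3 that fell were Tm6sf2 (-0.29, adjusted p = 0.0419), which helps to lipidate VLDL, Surf4 (-0.19, adjusted p = 0.0117), a cargo receptor for lipoprotein export, and Pla2g12b (-0.19, adjusted p = 0.0464). At 150 mg/kg the risers were A1cf (0.53, adjusted p = 0.00335), the cofactor of Apob mRNA editing, and Lpcat3 (0.45, adjusted p = 0.00458), which makes the polyunsaturated phospholipids that VLDL lipidation needs. Apob itself had a log2FC of 0.19 at this dose. The median log2FC of the list was 0.04, 0.12 and 0.05 at the 3 doses.

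Of the 12 tested genes of plasma remodelling and HDL formation, Angptl4, an inhibitor of lipoprotein lipase, rose at 15 mg/kg (log2FC 0.55, SE 0.165, adjusted p = 0.0166) and at 150 mg/kg (1.47, SE 0.162, adjusted p = 9.84e-09), and no other gene passed at any dose. Its mean was 6.76 ± 2.24 (SD, n = 14) in control mice and 20.37 ± 5.47 (n = 14) at 150 mg/kg. Of the 9 genes of lipoprotein uptake, Lrp1, a receptor for apoE-bearing remnants, rose at 15 (0.42, adjusted p = 0.0474) and 150 mg/kg (0.60, adjusted p = 0.0142), Lsr fell at 15 (-0.28, adjusted p = 0.0244) and Sdc1, a proteoglycan that binds remnants, fell at 1.5 mg/kg (-0.48, adjusted p = 0.0183). Of the 10 tested other apolipoproteins and lipoprotein-bound proteins, only Apoh at 15 mg/kg passed (0.33, adjusted p = 0.0167). Beside these lists, 1.2% of all rows passed at 1.5, 14.2% at 15 and 2.17% at 150 mg/kg.

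Of 22 regulators of apolipoprotein genes, Ppara, the fatty acid receptor, rose at 150 mg/kg (log2FC 0.58, SE 0.118, adjusted p = 0.00187) and Srebf2 fell at 15 mg/kg (-0.45, SE 0.158, adjusted p = 0.0452), and no other passed against control. Among all rows, 14.2% passed at 15 and 2.17% at 150 mg/kg. The median log2FC of the regulators was 0.08, 0.01 and -0.02 at the 3 doses.

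Markers of hepatocytes were abundant in all groups, with summed values from 18770 to 39950 per mouse over 8 genes, of which Ttr rose at 15 mg/kg (log2FC 0.42) and Trf fell at 150 mg/kg (-0.19). For enterocytes, the main source of Apoa4 in the body, 3 of 10 listed markers were in the table: Fabp2, which liver also expressed here (medians 176, 138.8, 212.8 and 198.8 in the 4 groups), Anpep, which fell at 15 mg/kg (log2FC -0.57, adjusted p = 0.0101), and Slc5a1, with group means of at most 0.439. Their sum ran from 152.8 to 253.1 in control mice and from 147.4 to 271.7 at 150 mg/kg. Of 6 adipocyte markers, Adipoq, Plin1, Lep and Retn had medians of 0 in every group, Car3 is also a liver gene, and Cfd rose at 150 mg/kg (log2FC 2.07, adjusted p = 0.00335). Kupffer cell sums over 7 genes had medians of 69.65, 75.56, 72.51 and 71.8. Of 5 endothelial markers Pecam1 fell at 15 mg/kg (log2FC -0.52, adjusted p = 0.000867), the group in which most members changed, and the part of this difference in their values was not tested. Kupffer cell, blood, stellate cell and pancreatic markers had no gene past the threshold. Among all rows, 1.2%, 14.2% and 2.17% passed at 1.5, 15 and 150 mg/kg. Some of these markers varied with Apoa4 among mice of a group, as a description: the 3 stellate cell markers with a mean of 5 or more had a median rho of 0.605, Fabp2 had 0.634, the 8 hepatocyte markers had a median of -0.42 and the 4 Kupffer cell markers 0.292. All 5 tested stellate cell markers at 150 mg/kg had a log2FC below 0 (median -0.26). Summed over all 6 listed stellate cell markers, values ran from 122.5 to 193.6 at this dose, beside 118.6 to 343.2 in control mice. Dcn made up most of this sum, with means of 131.7 and 151 in these groups. The part of stellate cell markers in the lower Apoa4 was not tested.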

How the data were processed

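Liver RNA of 54 mice was sequenced by the authors from QuantSeq 3′ libraries and processed with STAR, RSEM and Salmon on GRCm38, per the labels. The deposited values are a signal that the authors name TPM. They were taken here to be rounded TPM scaled by a size factor per sample, a reading of the values and not a stated method: in every mouse they are whole multiples of 1 step (0.765 to 1.11; largest deviation 6.66e-05), and the whole numbers sum to 948342 to 980641. They are not reads, so no count test was run, and precision from depth is unknown. The values of a mouse summed to 747258 to 1076439.

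The members and the gene lists were chosen with earlier results of these data known. Samples were grouped by their labels. limma 3.58.1 (R 4.3.3; lmFit, eBayes with a trend) was run on log2(value + 1) for the 11431 of 20162 rows whose mean over all mice was 1 or more, in 1 fit of 4 groups with no covariates. Correlations were computed in Python 3.11.15 with scipy 1.17.1. Named genes are the 10 members, at most 3 genes past the threshold per list and dose, and the 5 most and least like Apoa4. Marker genes, Saa1, Saa2, Pltp, genes of the fat-storage list and the 3 VLDL genes that fell at 15 mg/kg were named after their values were seen. Alternatives were other pseudocounts, filters, scalings, weights, a robust fit, 2 groups alone, the replicate number as a block and each mouse left out. Those without 3 libraries and with covariates were added after seeing the data. On simulated data with 200 of 11431 genes shifted by 1 at 150 mg/kg, 180 were recovered and 2 others called.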

Additional observations from a re-analysis of the deposited data

How the results depend on the processing

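Apoa4 at 150 mg/kg kept its direction under every alternative run, from -1.89 to -0.93, with an adjusted p under 0.05 in each of those without a covariate, and from -1.96 to -1.65 with each mouse left out in turn (28 of 28 fits). The same held for Apoe at 15 mg/kg (-0.56 to -0.42). The number of members with an adjusted p under 0.05 at 15 mg/kg was 4. It was 2 with no filter, 2 with quantile normalization, 1 with the 2 groups alone and 2 with array quality weights. It was 3 with total scaling, with the replicate block and without the 3 libraries, and 2 to 6 with a mouse left out. At 150 mg/kg this number was 2 and became 1 with no filter (Apoc3, adjusted p = 0.0962). It became 3 with total scaling, quantile normalization, array quality weights and without the 3 libraries, and 2 to 3 with a mouse left out. The number of DEGs at 15 mg/kg, 0, became 1 with total scaling, 1 with quantile normalization, 4 with no log2FC threshold and 0 to 1 with a mouse left out; that at 150 mg/kg became 2 with no threshold. The call of Apoa2 at 15 mg/kg was lost in 7 alternatives, that of Apoa5 in 3 (quantile normalization, the 2 groups alone and array weights) and that of Apoc1 in 2 (no filter, adjusted p = 0.0546; the 2 groups alone, 0.0519). The cause was not tested.

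Signs turned for members that passed in neither fit. With total scaling these were Apoc2 at 15 (-0.019) and Apoe and Mttp at 150 mg/kg (-0.060 and -0.0045); this scaling moved the median of all rows by less than 0.1. With quantile normalization they were Apoa2 and Apoc3 at 1.5 (-0.032 and -0.061), Apoc2 and Apoc3 at 15 (-0.11 and -0.16) and Apoa1 and Apoa2 at 150 mg/kg (0.014 and -0.065). At 15 mg/kg Apob turned with array weights (0.071) and without the 3 libraries (0.012), and Apoc2 with array weights (-0.028). With 1 mouse left out, Apob at 15 ran from -0.068 to 0.012, Apoc2 at 15 from -0.025 to 0.088, Apoc1 at 150 mg/kg from -0.065 to 0.026 and Apoa4 at 15 against 1.5 mg/kg from -0.27 to 0.10. Within single groups the r of Apoa2 was -0.246 with Apoa5 (1.5 mg/kg), and -0.00907 with Apoc1 and -0.0607 with Apoc3 (150 mg/kg).

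Mice with the same replicate number were not alike on average: over 79 same-numbered pairs the mean correlation of deviations was -0.0025 (from -0.359 to 0.243). A mean over all rows cannot show whether single genes followed the number. With the replicate number as a block Apoa4 at 150 mg/kg was -1.79 (adjusted p = 0.00786), and of the members' calls against control only Apoa2 at 15 mg/kg was lost (0.38, adjusted p = 0.0712).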
